A study of Mus musculus with 26 samples.

Results

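The immune checkpoint ligands and related surface molecules of tumor cells described here are 9 genes chosen by name: Cd274, Pdcd1lg2, Cd80, Cd276, Vtcn1, Cd47, Pvr, Lgals9 and Nt5e. All 9 were among the 45318 genes counted in RNA-seq libraries of 4T1 cells, a mammary tumor cell line of the BALB/c mouse, and 7 of them had enough counts to be tested. Polyadenylated RNA was sequenced from 2 control libraries, 3 libraries of MaTAR25 KO1 and 4 libraries of MaTAR25 KO2. KO1 and KO2 were clones grown from sorted single cells, and both carried a homozygous CRISPR/Cas9 deletion across the transcription start site of MaTAR25, a nuclear long non-coding RNA. The control cells had received Cas9 with a guide RNA against Renilla luciferase, a gene that mouse cells lack. Each knockout group was thus 1 clone, and the sources used here do not say whether the 2 control libraries came from 1 clone or from 2. No source says that the libraries of a group were separate cultures, so the p-values below measure the spread between these libraries, which may be technical. The libraries came from a cultured tumor cell line, so the values are transcript levels in bulk RNA and do not measure contact with immune cells. Which cells held each transcript was not measured.

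Checkpoint ligands are surface or secreted proteins that send inhibitory signals to immune cells. PD-L1 (encoded by Cd274) and PD-L2 (Pdcd1lg2) bind PD-1 on T cells, and the related B7 proteins CD80, B7-H3 (Cd276) and B7-H4 (Vtcn1) act in the same contact. CD47 binds SIRPα on macrophages and restrains phagocytosis, the poliovirus receptor CD155 (Pvr) binds TIGIT, CD96 and the activating receptor CD226, and galectin-9 (Lgals9) is a ligand of TIM-3. CD73 (Nt5e) is an ectoenzyme that makes adenosine, which quiets T cells through adenosine receptors. Interferon-γ induces Cd274, in part through the interferon regulatory factor IRF1.

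The libraries held between 25367211 and 61110585 counts on genes. MaTAR25 itself, the deleted gene (1200007C13Rik in the annotation), was counted 35 and 30 times in control, 2, 7 and 0 times in KO1 and 11, 1, 9 and 6 times in KO2, so every knockout library was below both control libraries. Of 15 leukocyte markers 14 stayed under 1 CPM (counts per 1000000 counts of the library, after TMM scaling) in every library and 7 had no count at all, while 7 of 9 epithelial markers were above 10 CPM in every library. The summed leukocyte markers ranged from 5.22 to 5.64 CPM in control, from 1.26 to 3.20 in KO1 and from 2.15 to 10.2 in KO2. Most of this sum came from Csf1r. None of the 3 leukocyte and 2 stromal or endothelial markers with enough counts was called in KO against control, but some were called between other groups. These markers are named here after their values were seen. Coro1a was higher in KO2 than in control, at 0.337 to 0.572 CPM against 0.110 and 0.214 CPM (adjusted p = 0.0474, edgeR), and the pan-leukocyte gene Ptprc, counted 15, 0, 40 and 5 times in KO2 and at most 2 times in any other library, was higher in KO2 than in KO1 (adjusted p = 0.0972). The endothelial gene Cdh5 had 25, 33, 4 and 33 counts in KO2, 1 and 0 in control and none in KO1, and was called higher in KO2 in both comparisons (adjusted p = 0.0317 and 0.0208, edgeR). Of 8 epithelial markers tested 1 fell in KO, the cadherin gene Cdh1 (log2 fold change -0.65, adjusted p = 0.0684, edgeR), and 2 rose in KO1, the keratin genes Krt7 (1.89, adjusted p = 0.00468) and Krt8 (1.32, adjusted p = 0.0232). Between the clones 4 of these 8 epithelial markers were lower in KO2 and none was higher, and the part of any of these markers in the differences between the clones was not tested. Of all tested genes 22.6% were called in KO, 31.6% in KO1, 31.4% in KO2 and 19.6% between the clones.

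The sequences upstream of Cd274 and Lgals9 are shown because these members differed between the clones and because they alone, of the 8 members with a promoter window in the RefSeq table for GRCm38.p6, held an interferon regulatory factor element. The element was searched as GAAANNGAA on both strands in windows from 250 bases before to 50 bases after each start, and it occurred in 8.56% of all 32851 windows. The 250 bases before the start are printed on the strand of the gene, and capitals mark the element, which both genes carry in the reverse orientation.
Cd274, chr19:29367188-29367437, plus strand: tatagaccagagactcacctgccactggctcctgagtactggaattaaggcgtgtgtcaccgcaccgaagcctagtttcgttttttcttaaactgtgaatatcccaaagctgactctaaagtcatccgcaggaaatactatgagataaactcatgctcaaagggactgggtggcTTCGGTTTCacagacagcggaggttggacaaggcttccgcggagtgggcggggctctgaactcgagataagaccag
Lgals9, chr11:78984925-78985174, minus strand: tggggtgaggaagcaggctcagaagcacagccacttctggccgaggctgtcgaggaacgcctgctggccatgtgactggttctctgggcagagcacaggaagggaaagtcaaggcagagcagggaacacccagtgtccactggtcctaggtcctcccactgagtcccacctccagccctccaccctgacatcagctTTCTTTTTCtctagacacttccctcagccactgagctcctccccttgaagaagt
The element began at position -76 in Cd274 and at -54 in Lgals9, counted from the start of the gene, and Lgals9 held a further one at position 17. The gene Plgrkt on the minus strand starts at 29367390, inside the printed Cd274 bases, and the Cd274 element lies within its annotated body. An E-box (CACGTG) was found in 7.15% of all windows and an AP-1 element (TGANTCA) in 7.81%. Among the members' windows the E-box was not found, and the AP-1 element occurred in those of Cd80 and Vtcn1. These letters are a description of the windows, and binding of a factor was not measured.

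Per length of annotated exon, the members fell into an upper set and a lower set in control cells. The mean levels were 36.0 RPKM (CPM per kilobase of exon) for Cd47, 35.8 for Cd276, 20.5 for Nt5e and 20.1 for Pvr. Lgals9 followed at 3.25 RPKM and Cd274 at 2.24 RPKM. Neighbours in this order were not separated throughout: the control libraries ranged from 35.9 to 36.2 RPKM for Cd47 and from 34.2 to 37.5 for Cd276, and those of Nt5e, from 15.5 to 25.4, enclosed those of Pvr, from 19.9 to 20.2. The ranges of Lgals9, 2.37 to 4.14, and of Cd274, 1.69 to 2.80, also overlapped. In KO1 Cd276 stood first at 36.5 RPKM and Cd47 second at 20.2 RPKM, and Lgals9 at 13.5 RPKM stood above Pvr at 7.37 RPKM. In KO2 Cd276 at 22.1, Nt5e at 20.4 and Cd47 at 20.2 RPKM lay close together, and Cd274 was at 0.381 RPKM.

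**Figure D1:**
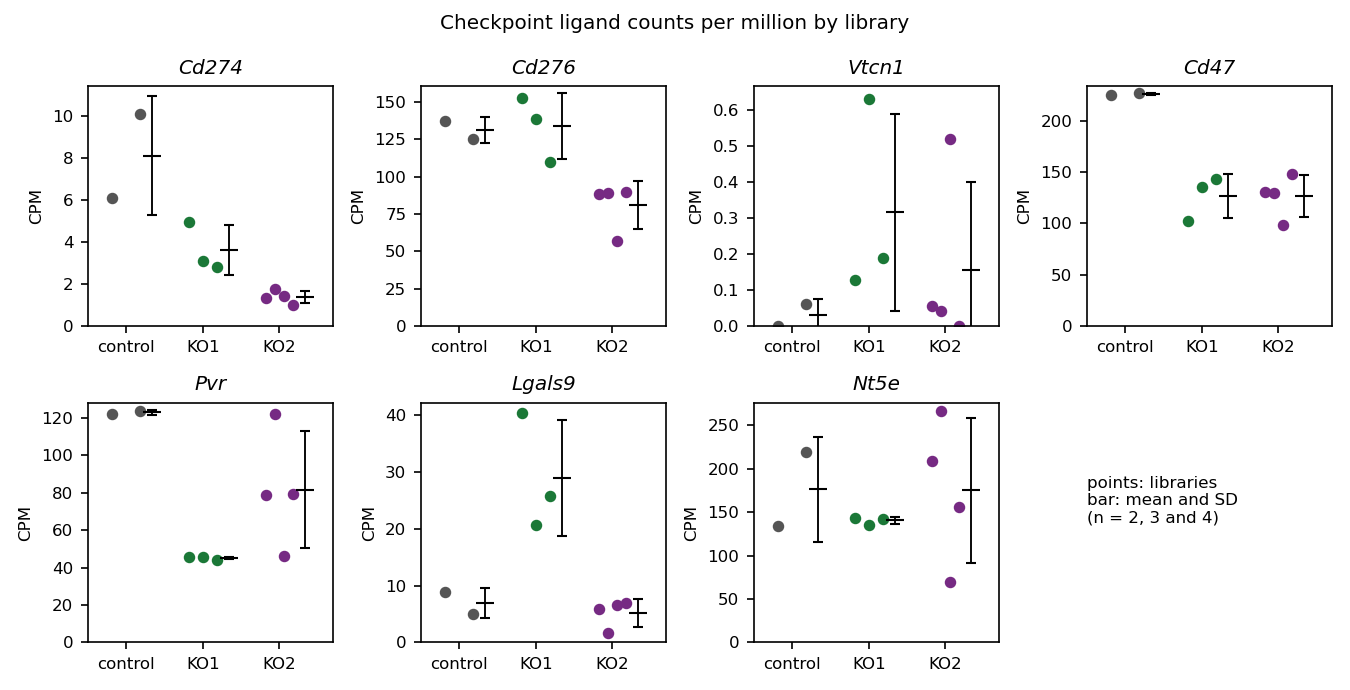
Each panel plots 1 member, with the CPM of every library on a linear axis from 0 against the groups control, KO1 and KO2; points are libraries and the bar gives the mean and SD (n = 2, 3 and 4; for Vtcn1 the bars are cut at 0). All 7 knockout libraries of Cd274 and of Cd47 lie below both control libraries, while Lgals9 is high in KO1 alone, at 20.7 to 40.3 CPM.

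Whether loss of MaTAR25 went with a change in these genes was first asked with both clones as 1 knockout (KO) group against control. Cd274 and Cd47 fell, none of the 7 tested members rose, and the other 5 did not pass the test. This was edgeR's quasi-likelihood test with a Benjamini-Hochberg adjusted p of at most 0.1 over the 15023 genes tested, of which 22.6% were called (11.9% higher and 10.7% lower), so that 2 of 7 is near the share of all genes. The median log2 fold change of the 7 members was -0.34, beside 0.06 for all tested genes. In KO1 4 of 7 members were called (1 higher, 3 lower), beside 31.6% of all genes (15.9% higher and 15.7% lower). In KO2 3 of 7 were called, all lower, beside 31.4% of all genes (16.5% higher and 15% lower). Between KO2 and KO1 4 of 7 were called (1 higher, 3 lower in KO2), beside 19.6% of all genes (10.2% higher and 9.43% lower). The clones share the control libraries, so their values against control are given side by side and are not independent of each other.

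Cd274 (ENSMUSG00000016496, chromosome 19, 29367455 to 29388095, plus strand in GENCODE vM21 on GRCm38), the gene of PD-L1, was counted 279 and 332 times in control, 312, 93 and 104 times in KO1 and 47, 42, 63 and 50 times in KO2. Scaled to library size these counts were 6.12 and 10.1 CPM in control, 4.97, 3.08 and 2.81 CPM in KO1, and 1.31, 1.77, 1.42 and 1.02 CPM in KO2. No library of KO1 overlapped with control, and no library of KO2 overlapped with KO1, so the groups stood in the order control, KO1, KO2. For this order, and for separations of single clones given below, the share of all tested genes was not counted. The means were 8.13 CPM ± 2.83 (SD, n = 2), 3.62 ± 1.18 (SD, n = 3) and 1.38 ± 0.309 (SD, n = 4), which is 2.24-fold lower in KO1 and 5.88-fold lower in KO2. The log2 fold change of KO against control was -1.79 (SE 0.53, adjusted p = 0.0457, edgeR), and it was -1.16 (SE 0.39, adjusted p = 0.0570) for KO1 and -2.56 (SE 0.36, adjusted p = 0.00232) for KO2. The difference between the clones was itself called, at -1.40 (SE 0.33, adjusted p = 0.0288, edgeR). A two-sided exact permutation test on log2(CPM + 1) gave p = 0.0278 for KO against control, the lowest value possible with 2 against 7 libraries (36 splits). The call of KO2 against control held without any one library, at adjusted p values from 0.00266 to 0.0407, but that of KO against control was lost without control replicate 1 (adjusted p = 0.167) or control replicate 2 (0.378), and that of KO2 against KO1 without KO1 replicate 1 (0.116). The KO1 call was lost without control replicate 1 (adjusted p = 0.114), control replicate 2 (0.398), KO1 replicate 2 (0.158) or KO1 replicate 3 (0.163), and an antisense gene overlaps Cd274 whose reads cannot be told apart from it where counting ignores strand.

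Pdcd1lg2 (ENSMUSG00000016498), the gene of PD-L2, lies downstream of Cd274 on chromosome 19, from 29410919 to 29471161 on the plus strand. It had no count in 8 of the 9 libraries and 2 counts in KO2 replicate 1. In control, 0 counts in both libraries allow a level of up to 0.0383 CPM (3 counts over the group, counting error only). PD-L2 transcripts were therefore not detectable at this depth in control cells, and no fold is given.

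Cd80 (ENSMUSG00000075122, chromosome 16, 38455561 to 38496335, plus strand), a ligand of CD28 and CTLA-4 that also binds PD-L1 on the same cell, had 1 count in KO1 replicate 3 and none in the other libraries. Vtcn1 (ENSMUSG00000051076, chromosome 3, 100825459 to 100896922, plus strand), the gene of B7-H4, was counted 0 and 2 times in control, 8, 19 and 7 times in KO1 and 2, 1, 23 and 0 times in KO2. It passed the filter on low counts through its knockout libraries, and its log2 fold change of 2.90 had an SE of 1.72 (adjusted p = 0.279, edgeR). The libraries of KO2 alone spanned 0 to 0.520 CPM and enclosed those of control.

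Cd276 (ENSMUSG00000035914, chromosome 9, 58524298 to 58555437, minus strand), the gene of B7-H3, was the B7 family member with the highest level. It had 137 and 125 CPM in control, 153, 138 and 110 CPM in KO1, and 88.5, 88.9, 56.8 and 89.4 CPM in KO2. KO1 enclosed the control libraries, and all 4 KO2 libraries were below every control and KO1 library. The means were 131 CPM ± 8.70 (SD, n = 2), 134 ± 22.1 (SD, n = 3) and 80.9 ± 16.1 (SD, n = 4), so the level in KO2 was 1.62-fold lower than in control. On the log2 scale the change was 0.03 (SE 0.23, adjusted p = 0.940, edgeR) in KO1, -0.70 (SE 0.21, adjusted p = 0.0399) in KO2 and -0.72 (SE 0.19, adjusted p = 0.0381) between KO2 and KO1. Without control replicate 1 or 2 the KO2 call was lost (adjusted p = 0.248 and 0.161), and the difference between the clones was lost without KO1 replicate 1 or 2 (adjusted p = 0.135 and 0.137).

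Cd47 (ENSMUSG00000055447, chromosome 16, 49800533 to 49915010, plus strand), which carries the signal against phagocytosis, had 10252 and 7438 counts in control, 6422, 4080 and 5276 in KO1 and 4677, 3068, 4363 and 7259 in KO2. The levels were 225 and 227 CPM in control, 102, 135 and 143 CPM in KO1, and 130, 129, 98.7 and 148 CPM in KO2. The highest knockout library was below the lower control library, and the clones overlapped with each other. The means were 226 CPM ± 1.33 (SD, n = 2), 127 ± 21.5 (SD, n = 3) and 127 ± 20.6 (SD, n = 4), a 1.78-fold lower level in each clone. Against control, the log2 fold change was -0.83 (SE 0.17, adjusted p = 0.0111, edgeR) for KO, -0.83 (SE 0.20, adjusted p = 0.0167) for KO1 and -0.84 (SE 0.19, adjusted p = 0.0131) for KO2. The exact permutation test gave p = 0.0278, and the difference between the clones was -0.00 (SE 0.17, adjusted p = 0.997, edgeR). Cd47 and Cd274 were the members whose 7 knockout libraries all lay on one side of control, a pattern that 34.4% of all tested genes showed. With a single control library the fold change stayed at -0.83 to -0.82, and the adjusted p rose to 0.138 without control replicate 1 and 0.132 without control replicate 2 for KO, to 0.117 and 0.110 for KO1 and to 0.109 and 0.107 for KO2.

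**Figure D2:**
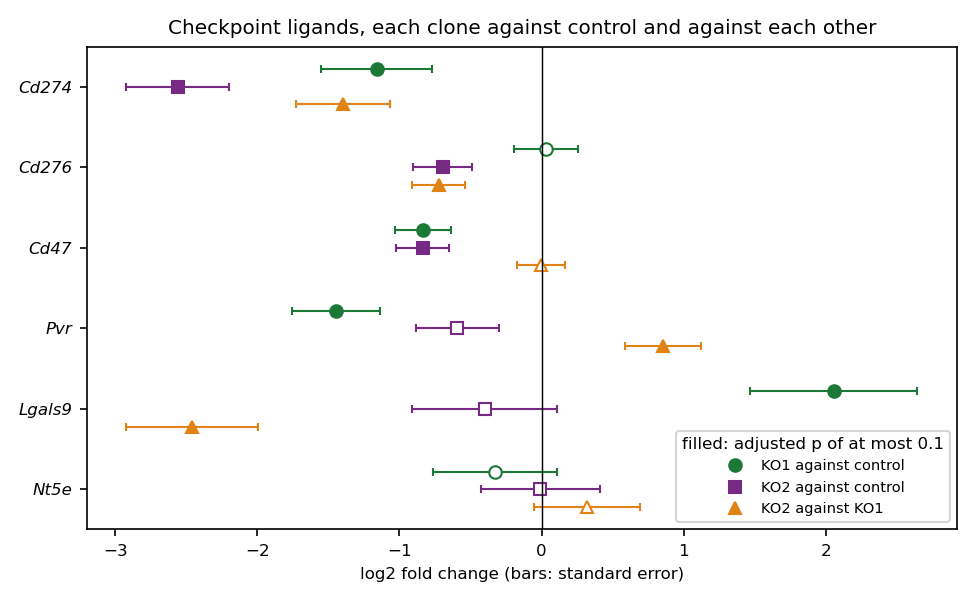
The log2 fold change on the horizontal axis, with its standard error as a bar, is plotted for 6 members in 3 comparisons, KO1 against control, KO2 against control and KO2 against KO1; filled symbols passed an adjusted p of at most 0.1. Cd47 stands at -0.83 and -0.84 in the clones, whereas Cd274, Cd276, Pvr and Lgals9 have filled symbols for the difference between the clones.

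Pvr (ENSMUSG00000040511, chromosome 7, 19903578 to 19921160, minus strand), the gene of CD155, had 122 and 124 CPM in control, 45.4, 45.6 and 44.3 CPM in KO1, and 78.7, 122, 46.2 and 79.3 CPM in KO2. The KO1 libraries were close together and 2.73-fold below control in the mean, 45.1 CPM ± 0.736 (SD, n = 3) against 123 ± 1.22 (SD, n = 2). The KO2 libraries spread from the level of KO1 to that of control, with a mean of 81.6 CPM ± 31.2 (SD, n = 4). Fitted log2 fold changes were -1.45 (SE 0.31, adjusted p = 0.0108, edgeR) in KO1, -0.59 (SE 0.29, adjusted p = 0.171) in KO2 and 0.85 (SE 0.27, adjusted p = 0.0689) between KO2 and KO1. KO against control gave -0.90 (SE 0.37, adjusted p = 0.128, edgeR) and an exact permutation p of 0.0556. Without KO2 replicate 2, KO against control reached -1.12 (adjusted p = 0.0212) and KO2 against control -0.85 (adjusted p = 0.0227), and with all libraries the mean of both clones in the fit of 3 groups was also called (-1.02, adjusted p = 0.0202). The call between the clones was lost without any one of control replicates 1 and 2, KO1 replicates 1, 2 and 3 and KO2 replicates 1 and 4, at adjusted p values from 0.102 to 0.195, and with only these groups in the fit (0.105), and an antisense gene and a pseudogene overlap Pvr.

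Lgals9 (ENSMUSG00000001123, chromosome 11, 78962974 to 78984946, minus strand), the gene of galectin-9, was the one member that rose in a clone. It had 403 and 166 counts in control, 2530, 623 and 956 in KO1 and 209, 38, 293 and 339 in KO2. The levels were 8.85 and 5.06 CPM in control, 40.3, 20.7 and 25.9 CPM in KO1, and 5.83, 1.60, 6.63 and 6.93 CPM in KO2. Every KO1 library was above all control and KO2 libraries, and KO2 overlapped with control. The means were 6.96 CPM ± 2.67 (SD, n = 2), 28.9 ± 10.2 (SD, n = 3) and 5.25 ± 2.47 (SD, n = 4), so KO1 was 4.16-fold above control and 5.52-fold above KO2. The log2 fold change was 2.06 (SE 0.59, adjusted p = 0.0333, edgeR) in KO1, -0.40 (SE 0.51, adjusted p = 0.602) in KO2 and -2.46 (SE 0.46, adjusted p = 0.0141) between KO2 and KO1. With the clones as 1 group it was 1.15 (SE 1.00, adjusted p = 0.470, edgeR), a mean over clones that stood apart. The difference between the clones held without any one library (adjusted p from 0.00691 to 0.0569), and the KO1 call was lost without control replicate 1 (0.119) or control replicate 2 (0.223).

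Nt5e (ENSMUSG00000032420, chromosome 9, 88327197 to 88372092, plus strand), the gene of CD73, had 134 and 219 CPM in control, 143, 136 and 142 CPM in KO1, and 209, 266, 69.4 and 156 CPM in KO2. The KO1 libraries lay within the control range and the KO2 libraries on both sides of it. Its log2 fold change was -0.14 (SE 0.39, adjusted p = 0.846, edgeR) in KO, -0.33 (SE 0.44, adjusted p = 0.624) in KO1 and -0.01 (SE 0.42, adjusted p = 0.992) in KO2. The sign of the KO value turned when single libraries were left out, between -0.44 and 0.27.

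The receptors of these ligands are genes of T cells, natural killer cells and macrophages as background. Of 11 receptor genes listed, 10 were in the files and 4 had enough counts to be tested. In KO against control 2 rose and none fell, and the median log2 fold change of the 4 was 1.31. In KO1 2 rose and none fell, and in KO2 2 rose and 1 fell. Of all tested genes 22.6% were called in KO, 31.6% in KO1 and 31.4% in KO2. The one that fell in KO2 was Lag3 (-1.86, SE 0.49, adjusted p = 0.0250, edgeR), named here after its values were seen. Lag3 had low levels, with 37 and 20 counts in control and 3, 4, 8 and 16 in KO2, and stayed under 1 CPM in every library. Tigit, the inhibitory receptor of CD155, had 6.78 and 11.0 CPM in control, 17.0, 29.5 and 43.9 CPM in KO1, and 76.1, 59.8, 55.4 and 62.0 CPM in KO2. The groups did not overlap, a pattern whose share among all tested genes was not counted. The log2 fold change of Tigit was 2.47 (SE 0.55, adjusted p = 0.0159, edgeR) in KO, 1.76 (SE 0.38, adjusted p = 0.0115) in KO1 and 2.83 (SE 0.39, adjusted p = 0.00208) in KO2. Havcr2, which encodes TIM-3, was counted 4 and 10 times in control, 38, 43 and 169 times in KO1 and 208, 165, 246 and 209 times in KO2. Its levels were 0.0878 and 0.305 CPM in control, 0.606, 1.43 and 4.57 CPM in KO1, and 5.80, 6.95, 5.56 and 4.27 CPM in KO2. Its log2 fold change was 4.42 (SE 1.07, adjusted p = 0.0215, edgeR) in KO, 3.51 (SE 0.90, adjusted p = 0.0221) in KO1 and 4.87 (SE 0.94, adjusted p = 0.00724) in KO2. Pdcd1, Cd226 and Btla had no count in any library, and neither did 7 of the 15 leukocyte markers. The pan-leukocyte gene Ptprc had 1 count in each control library, 0, 2 and 1 in KO1 and 15, 0, 40 and 5 in KO2 (KO2 against control 3.69, SE 1.56, adjusted p = 0.119, edgeR). The leukocyte marker Coro1a was called higher in KO2 (1.57, SE 0.49, adjusted p = 0.0474, edgeR). Whether leukocytes had a part in the values of Tigit and Havcr2 was not tested. In bulk RNA, a change in the number of cells of a type and a change in RNA per cell cannot be told apart. The cells that held these transcripts were not identified.

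**Figure D3:**
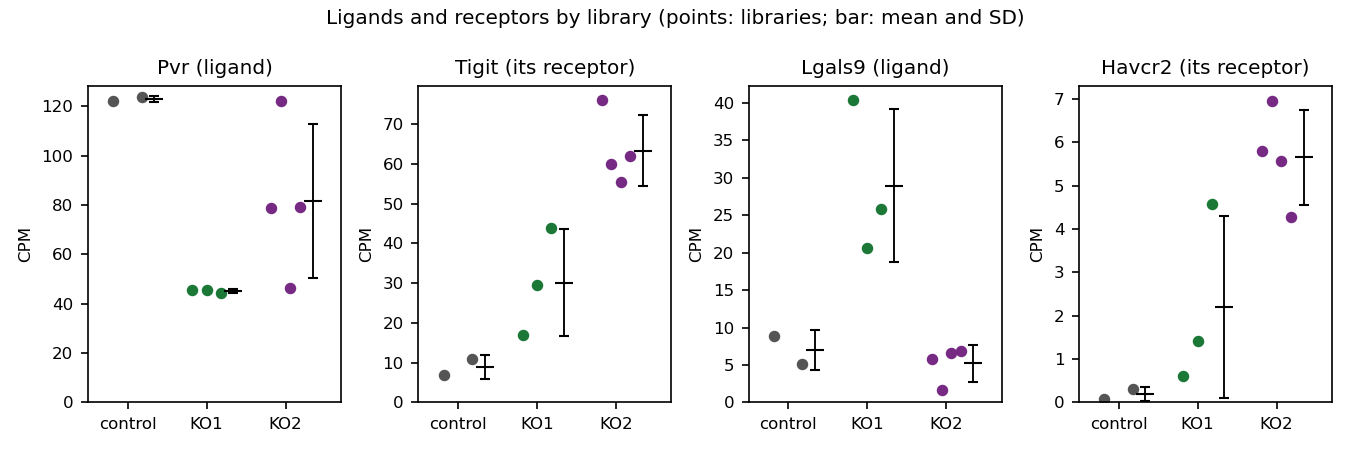
CPM on linear axes from 0 is plotted for each library of control, KO1 and KO2 for the ligands Pvr and Lgals9 and for their receptors Tigit and Havcr2; points are libraries and the bar gives the mean and SD (n = 2, 3 and 4). Tigit is at 6.78 and 11.0 CPM in control and at 55.4 to 76.1 CPM in KO2, and Havcr2 is below 0.31 CPM in both control libraries.

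Genes known to regulate PD-L1 were examined as a list of 28 genes, all of them tested. In KO against control 2 rose and 4 fell, which is near the 22.6% of all tested genes called, with a median log2 fold change of -0.11. Irf2, an interferon regulatory factor, had 65.6 and 70.0 CPM in control and 31.6 to 36.7 CPM in the 7 knockout libraries (log2 fold change -0.97, SE 0.13, adjusted p = 0.00215, edgeR). Gsk3b, a kinase that marks PD-L1 for degradation, fell by 0.84 on the log2 scale (adjusted p = 0.00362, edgeR), and Irf9, a further factor of interferon signalling, fell by 0.91 (adjusted p = 0.0760). Zdhhc3, which palmitoylates PD-L1 and thereby stabilises it, rose by 0.87 on the log2 scale (adjusted p = 0.0210, edgeR). In KO1 1 gene of the list rose and 5 fell, in KO2 3 rose and 5 fell, and between KO2 and KO1 4 were lower in KO2 and none higher. Of all tested genes 31.6% were called in KO1, 31.4% in KO2 and 19.6% between the clones. Irf1, named here after its values were seen, had 91.8 and 88.9 CPM in control, 142, 153 and 102 CPM in KO1 and 16.7, 17.6, 29.1 and 51.1 CPM in KO2. Its log2 fold change was 0.55 (SE 0.43, adjusted p = 0.387, edgeR) in KO1, -1.65 (SE 0.39, adjusted p = 0.0167) in KO2 and -2.21 (SE 0.36, adjusted p = 0.00889) between KO2 and KO1. Cd274 and Lgals9 were lower in KO2 than in KO1 too. Against control, Cd274 fell in KO1 (-1.16, adjusted p = 0.0570, edgeR) and in KO2 (-2.56, adjusted p = 0.00232). Lgals9 rose in KO1 (2.06, adjusted p = 0.0333, edgeR) and did not pass the test in KO2 (-0.40, adjusted p = 0.602). Against control, Irf1 was thus called in KO2 alone, Cd274 in both clones and Lgals9 in KO1 alone. Whether Irf1 had a part in the values of Cd274 or Lgals9 was not tested.

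The protein-coding genes within 100 kb of Cd274 or Pdcd1lg2 were Jak2, Insl6, Rln1, Plgrkt and Ric1, and 4 of these 5 had enough counts. Ric1, which encodes a membrane trafficking factor and starts 155 kb downstream of the Cd274 start, had 169 and 152 CPM in control, 51.7, 45.4 and 39.5 CPM in KO1 and 51.9, 73.0, 41.8 and 60.7 CPM in KO2. Its log2 fold change of -1.62 (SE 0.21, adjusted p = 0.00182, edgeR) was called in both clones, at -1.81 (adjusted p = 0.00125) and -1.50 (adjusted p = 0.00229). Insl6 fell by 1.11 on the log2 scale (SE 0.40, adjusted p = 0.0892, edgeR) and Plgrkt, a plasminogen receptor gene, fell by 0.48 (SE 0.15, adjusted p = 0.0598). Jak2, a kinase of cytokine receptors, gave -0.39 (SE 0.30, adjusted p = 0.400, edgeR). Rln1 did not pass the filter. In KO 3 of the 4 tested neighbours were called lower, beside 10.7% of all tested genes. Only Ric1 was called in both clones. Insl6 and Plgrkt were called in KO2 (adjusted p = 0.00781 and 0.0387, edgeR) and not in KO1 (0.183 and 0.106). Between the clones only Insl6 of the 4 was called, lower in KO2 by 0.92 (adjusted p = 0.0641, edgeR). Whether the position near Cd274 had a part was not tested.

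**Figure D4:**
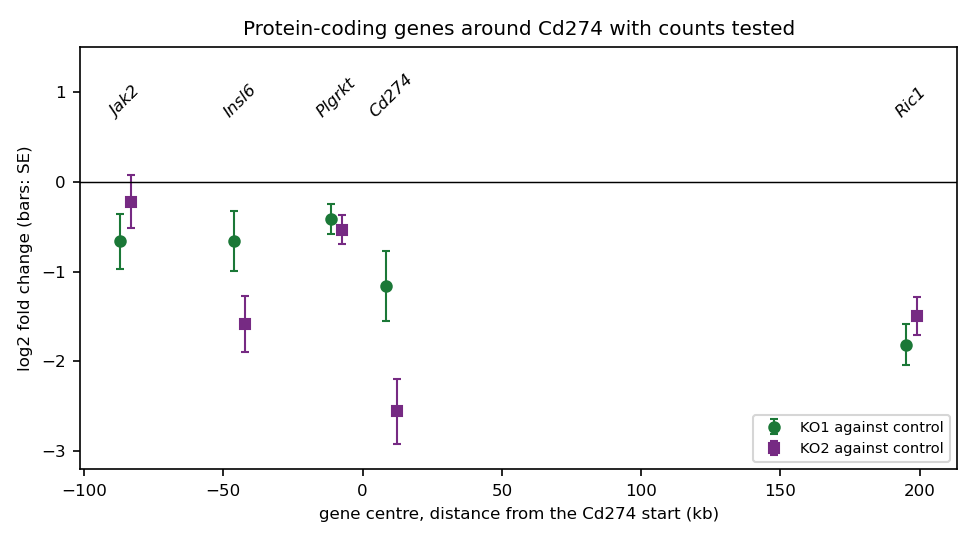
The log2 fold change against control, with its SE as a bar, is plotted for Cd274 and the 4 tested protein-coding neighbours against the distance of each gene's centre from the Cd274 start in kb; circles are KO1 and squares KO2. Cd274 in KO2 is the lowest point at -2.56, and Ric1 lies at -1.81 and -1.50.

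Of 12 other B7 and TNF-family costimulation genes 7 were tested. Tnfsf9, the ligand of the costimulatory receptor 4-1BB, rose with 3.51 and 3.08 CPM in control, 5.02, 7.43 and 9.74 CPM in KO1 and 20.6, 12.9, 11.6 and 15.0 CPM in KO2 (log2 fold change 1.83, SE 0.51, adjusted p = 0.0370, edgeR). None of the 7 fell in KO or in KO1, 2 fell in KO2, and the median in KO was -0.16. For this list and the next, the shares of all tested genes called were 22.6% in KO, 31.6% in KO1 and 31.4% in KO2. Cd86, the second ligand of CD28 and CTLA-4 beside Cd80, had no count in any library. Of 7 nectins and nectin-like genes, the family of Pvr, all were tested and none was called in KO or in KO1, while 2 rose and 1 fell in KO2. The one that fell, Nectin2, a further TIGIT ligand named here after its values were seen, gave -1.54 (SE 0.40, adjusted p = 0.0241, edgeR) in KO2, 0.34 (SE 0.44, adjusted p = 0.614) in KO1 and -1.88 (SE 0.37, adjusted p = 0.0162) between the clones.

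Of 12 other galectins and TIM-3 ligands 8 were tested, and 2 rose and 2 fell in KO, as in each clone. Beside this, 22.6% of all tested genes were called in KO, 31.6% in KO1 and 31.4% in KO2. Lgals1, which encodes galectin-1, rose from 2463 and 2199 CPM in control to between 3720 and 4973 CPM in the knockout libraries (log2 fold change 0.88, SE 0.15, adjusted p = 0.00543, edgeR). Hmgb1, a chromatin protein that TIM-3 also binds, rose by 0.85 on the log2 scale (adjusted p = 0.0187, edgeR). Lgals4 and Lgals7, both at low levels, fell by 2.43 (adjusted p = 0.00927, edgeR) and 2.53 (adjusted p = 0.0581). Unlike Lgals9, Lgals1 did not pass the test between the clones (adjusted p = 0.744, edgeR).

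The partners of CD47 and other signals read by phagocytes made a list of 10 genes with 9 tested. In KO 2 rose and none fell, with a median of 0.64, in KO1 1 rose and 1 fell, and in KO2 4 rose. Among all tested genes 22.6% were called in KO, 31.6% in KO1 and 31.4% in KO2, so 2 of 9 in KO is near the share of all genes. Cd24a, which encodes another surface protein read by phagocytes, rose by 0.83 on the log2 scale (adjusted p = 0.0982, edgeR). It was called in KO2 (1.10, adjusted p = 0.00477) and between the clones (0.74, adjusted p = 0.0225) and not in KO1 (0.36, adjusted p = 0.199). Qpctl, the glutaminyl cyclase that modifies CD47 at its SIRPα binding site, rose by 0.93 (adjusted p = 0.0655, edgeR) and was called in KO2 (1.08, adjusted p = 0.0257) and not in KO1 (0.70, adjusted p = 0.114). In KO both rose while Cd47 fell. In the adenosine pathway, a list of 16 genes with 10 tested, 2 rose and 1 fell in KO, 1 rose and 1 fell in KO1, and 4 rose and 1 fell in KO2. The shares of all tested genes given for the CD47 list stand beside these counts too. Entpd2, an ectonucleotidase upstream of CD73, had 32 and 13 counts in control and none in the 7 knockout libraries, at least 51.8-fold lower by the control mean against a floor of 3 counts over the knockout group. Ada, which removes adenosine, rose by 1.25 on the log2 scale (adjusted p = 0.0199, edgeR), and Adk, the adenosine kinase, rose by 0.57 (adjusted p = 0.0679).

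Whether MaTAR25 chromatin contacts lay near the members was described with ChIRP-seq peak lists, in which biotinylated oligonucleotides against MaTAR25 pulled down chromatin of 4T1 cells or of MMTV-Neu-NDL cells, another mouse mammary tumor line. Each list gives a single score per peak for its replicates together, so no replicate test was possible here. In the 4T1 list of all oligonucleotides 7 of the 9 members had a peak whose nearest promoter was theirs, beside 59.6% of all tested genes, and 6 of 9 had one in the gene body, beside 51.2%. Pdcd1lg2 and Cd80, which had too few counts to be tested, are in both member counts but not in the shares. Gene length was not taken into account. Cd274 had no peak in this list and in that of the odd oligonucleotides, and 1 in that of the even ones, with a score of 21.2 at rank 52376 of 64607. Lgals9 had none in any of the 3 lists of 4T1 cells. Cd47 had the highest-scoring peak of the members, with a score of 579.3 (rank 546 of 76806, list median 42) at chr16:49802017-49802771. This position is inside the Cd47 body of GENCODE vM21 but 53.3 kb upstream of the start in RefSeq, and the highest body peak of the even list (score 446.8, rank 324) and of the MMTV-Neu-NDL list (436.1, rank 932) overlapped it. In the odd list a peak also overlapped it (413.2, rank 2936 of 61311), but the highest Cd47 body peak was another one, at chr16:49814436-49815316 (487.8, rank 2357).

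Part of that peak is printed because it scored highest, with capitals for its longest exact match, 12 bases on the reverse strand, to any of the 14 MaTAR25 oligonucleotides, here number 4, which is one of the even oligonucleotides (GRCm38, plus strand).
Cd47 peak, chr16:49802157-49802268: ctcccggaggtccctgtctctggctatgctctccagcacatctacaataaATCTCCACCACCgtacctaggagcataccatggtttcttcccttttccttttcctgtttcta
The highest body peak of Pdcd1lg2, a member with at most 2 counts in any library, also held a match of 12 bases. A match of this length was thus not particular to Cd47. The Pdcd1lg2 match was to oligonucleotide number 9 and had different bases. Read on the reverse strand, the Cd47 match is the motif that the paper reports as most enriched in its ChIRP-seq data. The paper relates this motif to binding by MaTAR25 with the protein PURB. Oligonucleotide number 4 contains the whole motif, so the match alone cannot tell the motif from pairing with the oligonucleotide. A direct pairing of oligonucleotides with DNA at these places was not tested.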

How the data were processed

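RNA-seq counts of 9 libraries and 4 ChIRP-seq peak lists were used. The deposited values are raw counts per gene, which the authors made with HTSeq on the genes of GENCODE vM5 after aligning single-end reads with STAR (GRCm38). The sources used here do not say whether counting used strand, so overlapping antisense genes cannot be told apart. In each library 33.9 to 37.0% of the reads in the files were not assigned to a gene, and these rows stayed out of library sizes. The file of KO2 replicate 2 lists each gene 3 times identically and was used once. The authors mapped ChIRP-seq reads with Bowtie2. They called peaks with HOMER's differential peak script for replicates, with a Ppib pulldown as background and a minimum fold enrichment. The deposited peak score has no stated scaling, and a score was set only beside others of its list.

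Counts were tested in edgeR 4.0.16 (R 4.3.3) with TMM library sizes, the filterByExpr filter, a quasi-likelihood test and p-values adjusted after Benjamini and Hochberg over 15023 genes at 0.1, the threshold of the study. KO against control pooled the clones, and the other comparisons came from a fit of 3 groups. CPM used TMM library sizes, and RPKM divided them by the exon length of GENCODE vM21. Exact permutation tests used log2(CPM + 1). SE is the log2 fold change divided by the root of the F statistic. The fits were tested on simulated counts. Peaks were given to members by the nearest promoter or by overlap with the gene body. Alternatives were DESeq2 1.42.0, RLE size factors, no filter, at least 10 counts in every library, a threshold of 0.05, a replicate block, other groupings of the fit, leaving out each library, a pseudocount of 0.25 and peaks with a score of at least 100.

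All members were named with every library. Of each other list the genes called in KO against control were named, at most 4 by p, as were the coding genes within 100 kb of Cd274 or Pdcd1lg2. The members and lists were chosen with earlier results of these data known. Counting intervals and floors cover counting error only. Analyses used Python 3.11.15, numpy 2.4.6 and pandas 2.3.3.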

Additional observations from a re-analysis of the deposited data

Results flagged for a closer look

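The response of 4 members differed between the clones by the test of KO2 against KO1 (edgeR, adjusted p of at most 0.1): the log2 difference, KO2 minus KO1, was -1.40 for Cd274, -0.72 for Cd276, 0.85 for Pvr and -2.46 for Lgals9. Against control, Lgals9 rose in KO1 (2.06) and did not pass the test in KO2 (-0.40, SE 0.51, adjusted p = 0.602, edgeR). Each clone is a single line, so a difference between clones and one between deletions cannot be told apart.

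In KO2 1 library stood apart for 2 of the 7 members checked, by the gap to the nearest of the other libraries as a share of the range. KO2 replicate 3 was low for Cd276, at 56.8 CPM against 88.5 to 89.4 CPM in the others, and high for Vtcn1, at 0.520 CPM against at most 0.0558 CPM. By chance about 1 in 20 groups would show such a gap.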

How the results depend on the processing

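DESeq2, RLE size factors, both filters and a fit of only the groups compared kept each count of called members within 1.5 times its main value, as did the threshold of 0.05. Of 405 values of single members under the alternatives, 354 kept their direction and their side of the threshold, 31 lost the call, 3 gained it and 17 changed sign, and none of those 17 was a called value. The replicate numbers did not pair the libraries (correlations of deviations from -0.135 to 0.044 over 7 same-numbered pairs, and not every library correlated best with its own number). With the replicate block the members called were 1 in KO against control and 2 between KO2 and KO1, and 3 in each clone against control. The calls lost were those of Cd274 in KO (-1.54, adjusted p = 0.189, edgeR), in KO1 (-1.04, 0.149) and between the clones (-1.27, 0.110), and of Pvr between the clones (0.77, 0.137). The block turned Nt5e to 0.129 in KO, 0.0266 in KO1 and 0.193 in KO2 on the log2 scale. Leaving out 1 library gave 0 to 3 members called in KO, 1 to 4 in KO1, 1 to 4 in KO2 and 1 to 4 between the clones; without a control library the lone one was assumed to vary like the other groups. The log2 fold changes then spanned -0.435 to 0.266 (KO), -0.624 to 0.0779 (KO1) and -0.309 to 0.392 (KO2) for Nt5e, -0.0784 to 0.155 (KO1) for Cd276, -0.742 to 0.0718 (KO2) for Lgals9 and -0.136 to 0.106 (KO2 against KO1) for Cd47. The last was 0.00201 with RLE size factors, 0.0193 with at least 10 counts in every library and 0.00763 with only the groups compared. With a peak score of at least 100, 1 member instead of 7 had a peak whose nearest promoter was its own. Only 2 control libraries limit every comparison with control, and fewer than 30 counts in any library limit Vtcn1.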
